A study of Mus musculus with 9 samples.

Results

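The genes described here are 7 transcripts of the red cell lineage: the adult alpha-globin genes Hba-a1 and Hba-a2, the adult beta-globin genes Hbb-bs and Hbb-bt, the heme enzyme gene Alas2, the anion exchanger gene Slc4a1 and the erythropoietin receptor gene Epor. They were chosen by symbol, and each was read in all 9 tumors out of 54429 gene symbols. The question was how much of this signal reflects blood carried in the tumor and how much could come from erythroid precursors, the nucleated cells of bone marrow and spleen that make red cells. After a filter on low counts 6 of the 7 were tested among 15931 genes, and Slc4a1 was not.

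NB9464 is a MYCN-amplified neuroblastoma line of mouse origin, and it was placed under the skin of wild-type C57BL/6 mice, where treatment began at a tumor volume of 250 mm3. There were 3 groups of 3 whole tumors. Vehicle tumors received the carrier, R788 + anti-PDL1 tumors received the Syk inhibitor R788 (fostamatinib) at 50 mg/kg 5 times a week with the PDL1 antibody clone 10F.9G2 4 times a week, and Rad + R788 + anti-PDL1 tumors received both agents and 10 Gy of radiation. The design text counts 4 doses between day 28 and day 37, without tying them to an agent. Radiation alone and either agent alone were not analysed here, and each tumor held both injected cells and whatever host blood and stroma it contained. The labels do not say whether tumors were rinsed or mice perfused before RNA was taken.

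Estimated counts summed to 18276683 to 23397886 per library. Levels are given as CPM, counts scaled to a common library size, after TMM normalization, a scaling that compares libraries through the bulk of their genes. Rad + R788 + anti-PDL1 replicate 1 stood apart, with a TMM factor of 0.743 against 0.975 to 1.12 in the other libraries and with 18263 genes detected, the fewest of all. The extraction text names bone marrow-derived macrophages while the tissue label says whole tumor. Among markers of noradrenergic neuroblasts, Th was at 0 in every library, whereas Hand2 had 372 ± 56.1 CPM and Mycn 159 ± 28.3 CPM in vehicle tumors (SD, n = 3). Gata3, another of these markers, had 4.85 ± 5.81 CPM in vehicle tumors. The neuroblast gene Isl1 had 0 counts in all 3 vehicle tumors and 48 to 80 counts in R788 + anti-PDL1 tumors, where its mean level was at least 16.0-fold higher than the floor of 3 counts in a library. It was the 1 gene of all lists examined that was called by edgeR in that comparison (adjusted p = 0.0344), and the call held in 10 of 15 alternative fits (adjusted p from 8.27e-08 to 0.217).

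Hemoglobin is built from alpha-like and beta-like chains, each holding a heme, and its genes are switched on in erythroblasts under GATA and CACCC-binding factors. Alas2 makes the first intermediate of heme in erythroid cells, and Slc4a1 (band 3) exchanges chloride for bicarbonate and anchors the red cell skeleton. Epor receives the erythropoietin signal that keeps early erythroid progenitors alive. Mature red cells have no nucleus, and young red cells in blood, the reticulocytes, still carry much globin RNA and some Alas2 RNA. Epor, Klf1 and Gata1 mark the earlier nucleated stages, and Epor is also used outside the lineage.

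The regions upstream of these genes are shown because the members share elements there that the choice of genes did not use. Each line gives the 250 bases before the RefSeq start of the gene, on build GRCm38.p6 and read 5′ to 3′ along the gene. Capitals mark matches on either strand to the GATA box (GATAA), the CACCC box (CACCC), the CCAAT box (CCAAT) and the TATA box (TATAA), and where matches touch or overlap the capitals run together.
Hba-a2 (chr11:32296242-32296491, plus strand): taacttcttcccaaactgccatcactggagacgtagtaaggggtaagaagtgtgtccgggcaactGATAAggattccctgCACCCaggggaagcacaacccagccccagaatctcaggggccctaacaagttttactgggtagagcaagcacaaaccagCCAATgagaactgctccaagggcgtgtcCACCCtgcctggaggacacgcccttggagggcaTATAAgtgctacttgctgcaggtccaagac
Hbb-bs (chr7:103827929-103828178, minus strand): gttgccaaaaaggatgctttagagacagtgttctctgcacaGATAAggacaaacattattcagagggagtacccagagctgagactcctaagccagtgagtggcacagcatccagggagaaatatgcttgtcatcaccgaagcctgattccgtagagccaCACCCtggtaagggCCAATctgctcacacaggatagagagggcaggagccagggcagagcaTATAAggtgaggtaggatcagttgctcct
Alas2 (chrX:150547167-150547416, plus strand): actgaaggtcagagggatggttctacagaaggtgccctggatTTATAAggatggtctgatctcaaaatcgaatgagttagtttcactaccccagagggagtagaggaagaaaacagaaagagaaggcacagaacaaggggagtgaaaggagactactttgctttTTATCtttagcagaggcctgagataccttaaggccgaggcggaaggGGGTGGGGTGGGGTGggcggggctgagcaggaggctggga
Epor (chr9:21963577-21963826, minus strand): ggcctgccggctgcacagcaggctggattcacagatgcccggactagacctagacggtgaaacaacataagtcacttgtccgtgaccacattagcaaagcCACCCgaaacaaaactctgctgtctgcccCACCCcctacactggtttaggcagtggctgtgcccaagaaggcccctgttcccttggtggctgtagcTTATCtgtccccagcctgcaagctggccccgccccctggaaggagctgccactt

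All 6 members in the promoter table held GATAA, which occurred in 22.6% of 32851 promoters of the same length, and all 6 held CACCC, which occurred in 52.0%. CCAAT was found in the 4 globin genes and in 33.8% of promoters, and TATAA in 5 members and in 22.8% of promoters. In Hbb-bs the TATAA match began 29 bases before the start and CCAAT 76 bases before it, and in Hba-a2 they began 30 and 91 bases before it. Epor held neither. Its GATAA match lay on the opposite strand 54 bases before the start, and that of Alas2 lay on the opposite strand 86 bases before. Over the longer stretch from 250 bases before to 50 after the start, Hba-a1 and Hba-a2 were identical at 297 of 297 bases once shifted by 3, while Hbb-bs and Hbb-bt matched at 56.2% of 299 bases. These matches are letters in a window and were not tested as binding sites. GENCODE places the start of 5 of the 6 genes, all but Epor, inside these RefSeq windows, so that part of each of those windows is transcribed by that annotation (168 bases for Hbb-bs, 42 for Alas2 and 3 for Hba-a2).

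The alpha genes lie on chromosome 11 (GRCm38, Hba-a1 at 32283511 to 32284465 and Hba-a2 at 32296489 to 32297298, plus strand) and the beta genes on chromosome 7 (Hbb-bs at 103826534 to 103828096 and Hbb-bt at 103812524 to 103813996, minus strand). Each has 3 exons. Copies within a pair are hard to tell apart by short reads: 71.3% of the 31-base words of the longest Hba-a1 transcript also occur in Hba-a2, and 91.0% of those of Hba-a2 occur in Hba-a1. For the beta pair the shares were 66.9% of Hbb-bs and 59.4% of Hbb-bt words. The split between copies is therefore uncertain, and sums over copies are given beside them. Alas2 (chromosome X, 150547375 to 150570638, 11 exons) overlaps Apex2 and Mir3620 on the other strand, and because strand was not stated its count is also uncertain. Slc4a1 (chromosome 11, 102348824 to 102366203, minus strand, 20 exons) and Epor (chromosome 9, 21958897 to 21963506, minus strand, 8 exons) overlap no other gene.

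Adult globin RNA was present in every tumor and was lower in both treated groups than in vehicle tumors, without passing the test across all genes by edgeR. The 4 genes summed to 618, 199 and 249 CPM in Vehicle replicates 1 to 3. In the R788 + anti-PDL1 tumors they summed to 57.1, 107 and 78.2 CPM, and in the Rad + R788 + anti-PDL1 tumors to 179, 52.9 and 47.7 CPM. Every treated tumor was below every vehicle tumor, although the highest, Rad + R788 + anti-PDL1 replicate 1, came close to Vehicle replicate 2. Between means on the log2 scale, the R788 + anti-PDL1 level was 4.00-fold lower than the vehicle level and the Rad + R788 + anti-PDL1 level 4.07-fold lower. Both gave p = 0.1 in an exact two-sided permutation test, the smallest p that 3 against 3 tumors can give. The treated groups differed by -0.03 from each other (exact permutation p = 1). Globin made up 0.00512% to 0.0603% of all counts, so it took little of any library. In whole tumors, fewer cells of a type and less RNA per cell cannot be told apart.

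Among single genes, Hbb-bs was the most abundant of the 7 by CPM. It had 4364, 1742 and 1803 counts in the vehicle tumors, 499, 970 and 690 in the R788 + anti-PDL1 tumors and 971, 412 and 383 in the Rad + R788 + anti-PDL1 tumors. Its level was 139 ± 88.5 CPM in vehicle, 29.1 ± 7.56 in R788 + anti-PDL1 and 36.6 ± 30.3 in Rad + R788 + anti-PDL1 tumors (SD, n = 3 each). Vehicle replicate 1 alone reached 241 CPM, and the other vehicle tumors 78.1 and 98.7 CPM. The minor beta gene Hbb-bt had 752, 223 and 288 counts in vehicle tumors, 60, 148 and 97 in R788 + anti-PDL1 tumors and 70, 44 and 55 in Rad + R788 + anti-PDL1 tumors. All 6 treated tumors were under the lowest vehicle tumor, which had 10.0 CPM.

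Hba-a2 had 3462, 1475 and 1377 counts in vehicle tumors, 412, 1027 and 611 after R788 + anti-PDL1, and 797, 320 and 308 in the irradiated group. Hba-a1, its near-identical copy, had 2636, 992 and 1077 counts, then 325, 664 and 511, and 598, 267 and 299. The same libraries were high for both copies, and in Rad + R788 + anti-PDL1 replicate 1 the Hba-a1 level of 44.1 CPM was just below the 44.5 CPM of Vehicle replicate 2. Per kilobase of transcript, vehicle tumors had 222 ± 141 CPM for Hbb-bs, 200 ± 126 for Hba-a2, 119 ± 78.0 for Hba-a1 and 31.9 ± 23.8 for Hbb-bt. Below these came Epor at 3.35 ± 0.94, Alas2 at 1.66 ± 0.98 and Slc4a1 at 0.113 ± 0.08 CPM per kilobase. Neighbours in this order overlapped within 1 SD, except for Hbb-bt over Epor and Alas2 over Slc4a1.

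**Figure D1:**
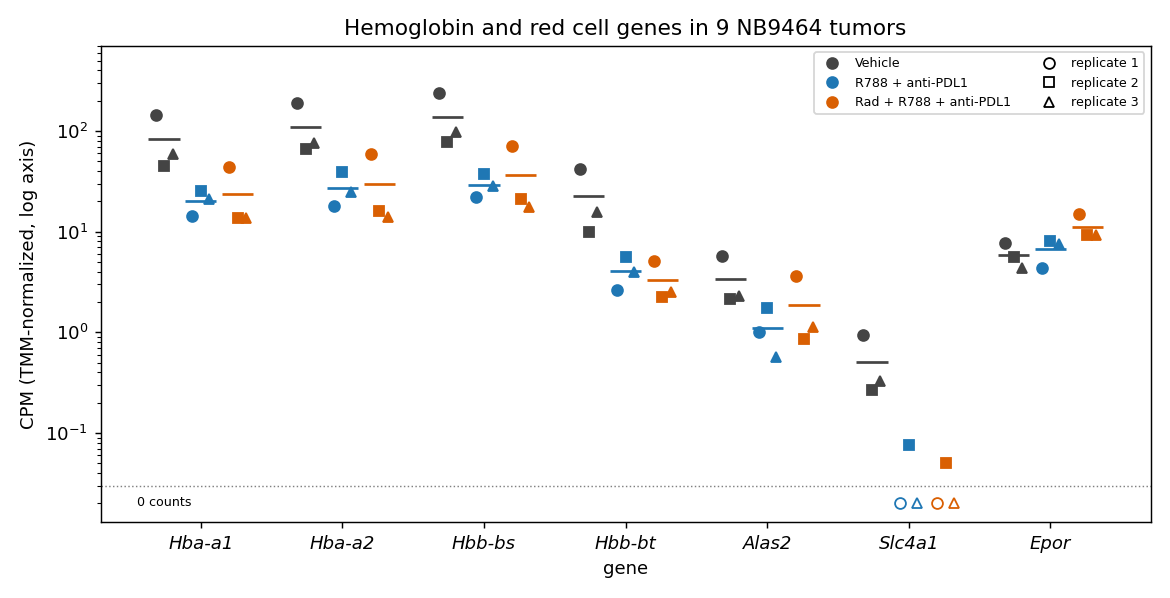
Level of each of the 7 genes in each tumor, in TMM-normalized CPM on a log axis, with horizontal lines at the means of groups that had a count in every tumor and open symbols for libraries with 0 counts. All 6 treated tumors lie under the lowest vehicle tumor for the 4 globin genes, and the Epor values of the 3 irradiated tumors lie above those of all others.

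For R788 + anti-PDL1 against vehicle, the edgeR log2 differences were -2.26 ± 0.61 (SE) for Hbb-bs (adjusted p = 0.147), -2.45 ± 0.58 for Hbb-bt (adjusted p = 0.107), -2.04 ± 0.58 for Hba-a1 (adjusted p = 0.174) and -2.01 ± 0.63 for Hba-a2 (adjusted p = 0.226). None of the 6 tested members was called at an adjusted p under 0.05, where the share of all genes called was 0.678%. At an unadjusted p under 0.05, 5 of 6 members passed, beside 11.7% of all genes. DESeq2, the tool that the study used, called 4 members, the globins, beside 4.83% of all genes. The groups did not overlap, with lower values after treatment, for 5 of 6 members and for 16.5% of all genes. The member median was -2.02 on the log2 scale and that of all genes -0.02. Without Vehicle replicate 1, the tumor with the most globin, 3 members rather than 5 passed the unadjusted threshold, and the log2 differences were -1.58 for Hbb-bs, -1.63 for Hbb-bt, -1.33 for Hba-a1, -1.34 for Hba-a2 and -0.97 for Alas2.

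For Rad + R788 + anti-PDL1 against vehicle, the log2 difference was -1.93 ± 0.60 for Hbb-bs (edgeR adjusted p = 0.271) and -2.77 ± 0.59 for Hbb-bt (adjusted p = 0.144). It was -1.81 ± 0.57 for Hba-a1 (adjusted p = 0.278) and -1.91 ± 0.62 for Hba-a2 (adjusted p = 0.285). edgeR called 0 of 6 members, and 0.0439% of all genes. The unadjusted threshold was passed by 5 members, the 4 globins and Epor, beside 13.2% of all genes, and by 2 members once Vehicle replicate 1 was left out. Without that tumor the log2 differences were -1.27 for Hbb-bs, -1.97 for Hbb-bt, -1.12 for Hba-a1 and -1.26 for Hba-a2. Without Rad + R788 + anti-PDL1 replicate 1 they were -2.84, -3.21, -2.59 and -2.85 in the same order. DESeq2 called 2, Hbb-bs (adjusted p = 0.0439) and Hbb-bt (adjusted p = 0.000372), beside 3.84% of all genes. The groups did not overlap for 4 members that were lower and 1 that was higher, beside 11.2% of all genes lower and 9.26% higher. The member median was -1.86, and that of all genes 0.05. Both comparisons share the vehicle tumors.

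Between the treated groups no globin gene stood apart. The log2 differences of Rad + R788 + anti-PDL1 from R788 + anti-PDL1 were 0.23 for Hba-a1, 0.11 for Hba-a2, 0.33 for Hbb-bs and -0.32 for Hbb-bt. Those of Hba-a1, Hba-a2 and Hbb-bs turned negative without Rad + R788 + anti-PDL1 replicate 1, at -0.57, -0.86 and -0.60. edgeR called 0 of 6 members beside 0.00628% of all genes, and none passed an unadjusted p under 0.05, which 18.4% of all genes did. DESeq2 also called 0, beside 5.16%. With copies summed, the beta pair differed from vehicle by -2.28 ± 0.60 (edgeR adjusted p = 0.141) after R788 + anti-PDL1 and by -2.02 ± 0.60 (adjusted p = 0.265) in the irradiated group. The alpha pair differed by -2.02 ± 0.60 (adjusted p = 0.202) and -1.86 ± 0.60 (adjusted p = 0.282).

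**Figure D2:**
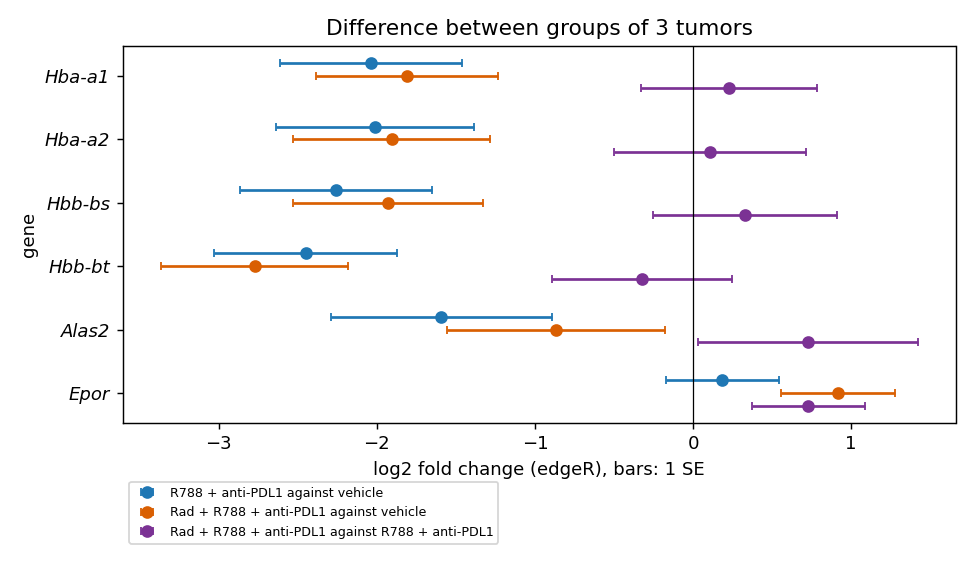
Log2 fold change of the 6 tested genes in the 3 comparisons by edgeR, with bars of 1 SE. Globin differences from vehicle lie between -2.77 and -1.81, those between treated groups between -0.32 and 0.33, and Epor differences lie at or above 0.18.

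Alas2 and Slc4a1, both expressed late in red cell formation, followed the globins to different degrees. Alas2 had 103, 48 and 42 counts in vehicle tumors, 23, 46 and 14 after R788 + anti-PDL1 and 49, 17 and 25 in the irradiated group. Its vehicle range of 2.15 to 5.68 CPM lay above the R788 + anti-PDL1 range of 0.573 to 1.76 CPM and overlapped the irradiated range of 0.862 to 3.61 CPM. The log2 difference from vehicle was -1.59 ± 0.70 for R788 + anti-PDL1 (edgeR adjusted p = 0.421) and -0.87 ± 0.69 for Rad + R788 + anti-PDL1 (adjusted p = 0.553). The latter ranged from -1.72 to -0.26 over 16 alternatives.

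Slc4a1 had 17, 6 and 6 counts in the vehicle tumors. It had 0, 2 and 0 counts in R788 + anti-PDL1 tumors and 0, 1 and 0 in Rad + R788 + anti-PDL1 tumors. Every vehicle tumor therefore held more Slc4a1 counts than any treated tumor, but a count of 0 allows up to 3 counts, or 0.115 to 0.221 CPM by library. Per library size, the pooled count in R788 + anti-PDL1 tumors was 0.0552 of that in vehicle tumors (95% interval 0.00638 to 0.218), and in the irradiated group 0.0366 (0.000897 to 0.221). These exact intervals pool the counts of each group and hold counting error alone, without the spread between tumors. Sequenced copies of 1 molecule cannot be recognised here, so counting error itself may be understated. When all 27965 genes with a count were tested without a filter, Slc4a1 gave an adjusted p of 0.348 and 0.376 by edgeR for these 2 comparisons.

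Relative to globin RNA, Alas2 was steady in vehicle tumors. There were 9.18, 10.8 and 9.24 Alas2 counts per 1000 globin counts in Vehicle replicates 1 to 3, although the globin counts themselves ran from 4432 to 11214. R788 + anti-PDL1 tumors had 17.7, 16.4 and 7.33 per 1000, and Rad + R788 + anti-PDL1 tumors had 20.1, 16.3 and 23.9. The irradiated tumors were all above the vehicle tumors, whereas the R788 + anti-PDL1 tumors lay on both sides of them. In R788 + anti-PDL1 replicate 3 the value rested on 14 Alas2 counts (95% exact binomial interval 4.00 to 12.3). Group means were 9.75 ± 0.93 in vehicle, 13.8 ± 5.66 in R788 + anti-PDL1 and 20.1 ± 3.81 in Rad + R788 + anti-PDL1 tumors (SD, n = 3). These ratios are a description with no test, and uncertain counts from the overlapping Apex2 enter them.

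Slc4a1 gave 1.52, 1.35 and 1.32 counts per 1000 globin counts in the vehicle tumors. In treated tumors it gave 0 in 4 libraries, 0.712 in R788 + anti-PDL1 replicate 2 and 0.959 in Rad + R788 + anti-PDL1 replicate 2. Per globin count, the pooled Slc4a1 rate was 0.232 of vehicle after R788 + anti-PDL1 (95% interval 0.0268 to 0.915) and 0.154 in the irradiated group (0.00377 to 0.928). Both upper bounds were close to 1. These intervals pool counts over the tumors of a group and leave out the spread between tumors. The interval of each single treated tumor overlapped those of the vehicle tumors. Both pooled intervals lay below 1 by counting error alone. Whether the groups differ beyond the spread between tumors was not tested.

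**Figure D3:**
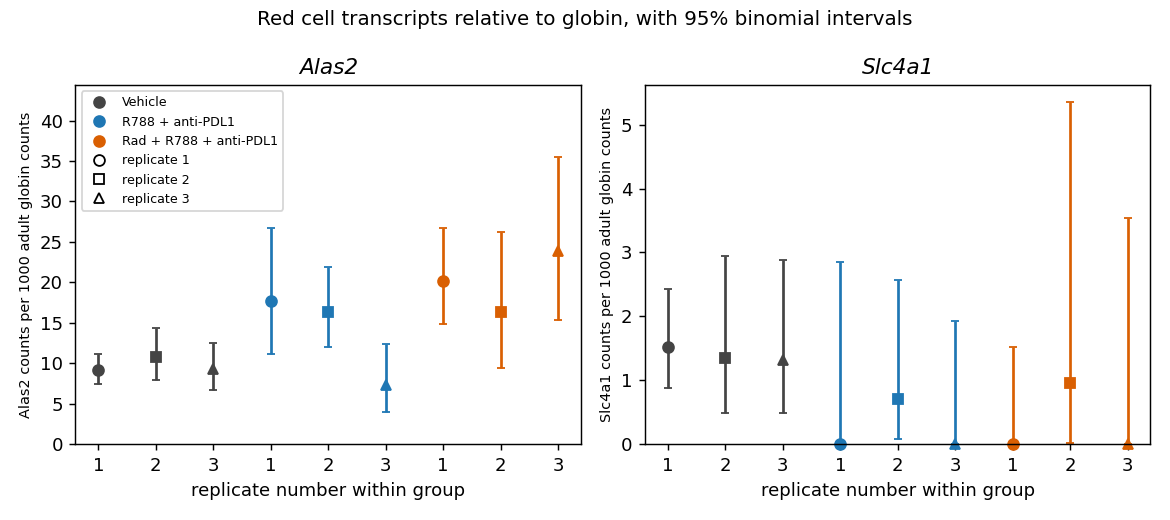
Alas2 and Slc4a1 counts per 1000 adult globin counts in each tumor, with exact 95% binomial intervals that cover counting error only. Vehicle tumors lie at 9.18 to 10.8 for Alas2 and 1.32 to 1.52 for Slc4a1, and the Slc4a1 intervals of treated tumors reach up to 5.35.

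The balance of the globin chains was looked at in the same way, after the values were seen. There were 1.19, 1.26 and 1.17 alpha counts per beta count in vehicle tumors, 1.32, 1.51 and 1.43 in R788 + anti-PDL1 tumors and 1.34, 1.29 and 1.39 in Rad + R788 + anti-PDL1 tumors. All treated tumors were above all vehicle tumors, while the treated groups overlapped. Hbb-bt made up 13.3 ± 1.73% of the beta pair in vehicle, 12.1 ± 1.27% in R788 + anti-PDL1 and 9.64 ± 2.92% in Rad + R788 + anti-PDL1 tumors, with its lowest share, 6.72%, in Rad + R788 + anti-PDL1 replicate 1. Hba-a1 made up 42.4 ± 1.96%, 43.0 ± 3.29% and 45.9 ± 3.21% of the alpha pair. Those shares rest on how the counting divided near-identical reads.

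Epor did not follow the globins. It had 139, 126 and 80 counts in vehicle tumors, 100, 214 and 184 in R788 + anti-PDL1 tumors and 202, 184 and 202 in Rad + R788 + anti-PDL1 tumors. Its level was 5.90 ± 1.66 CPM in vehicle, 6.70 ± 2.02 in R788 + anti-PDL1 and 11.1 ± 3.24 in Rad + R788 + anti-PDL1 tumors (SD, n = 3). The first 2 groups overlapped, and the irradiated tumors were above both, the highest being replicate 1 at 14.9 CPM. The log2 difference from vehicle was 0.18 ± 0.36 after R788 + anti-PDL1 (edgeR adjusted p = 0.892) and 0.91 ± 0.36 in the irradiated group (adjusted p = 0.345), and the treated groups differed by 0.73 ± 0.36 (adjusted p = 0.297). In that last comparison Epor was the 1 member whose groups did not overlap, beside 14.2% of all genes higher without overlap.

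Over the 9 tumors, log2 levels of the 4 globin genes moved together, with Pearson r from 0.961 to 0.996. Alas2 correlated with the globin sum at r = 0.897 (Spearman rho = 0.80, and r = 0.878 without the 2 tumors farthest from the median), and Slc4a1 at r = 0.876 (rho = 0.766, and r = 0.585 without those 2). Epor gave r = -0.08 with the globin sum (rho = -0.37, and r = -0.09 without those 2). These are descriptions over 9 libraries that share group means, normalization and depth. Of 13605 genes ranked by r with the globin sum, the top 5 were Bcl2l12, Cep78, Paqr4, Tfb1m and Trnp1, with r of 0.929 to 0.931. The highest for Alas2 were Vps25 (r = 0.940), Bcl2l12, Etfrf1, Stambp and Angpt4. The highest for Epor were Sec1 (r = 0.976), Hhatl, Slc25a38, Wdr78 and Phlda2.

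**Figure D4:**
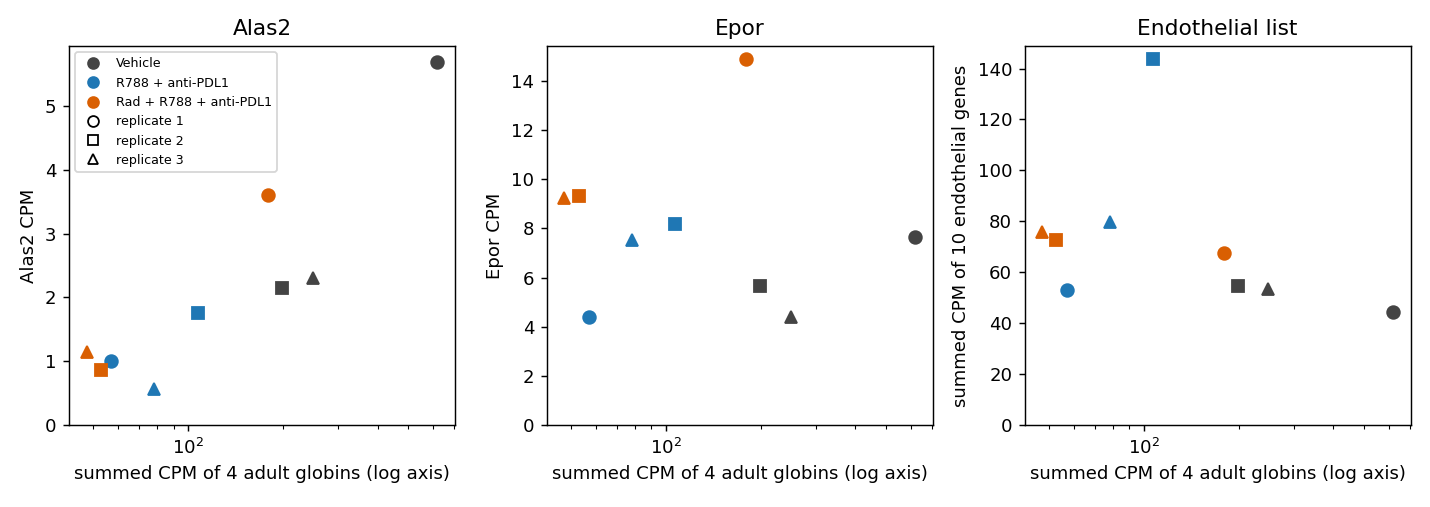
Alas2, Epor and the summed level of 10 endothelial genes against summed adult globin in each of 9 tumors, in CPM with a log axis for globin. Alas2 is highest in the tumor with the most globin (r = 0.897), and Epor shows no such order (r = -0.08). The endothelial sum is lowest in the tumor with the most globin (r = -0.47, and r = -0.04 without the 2 tumors farthest from the median).

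Erythroid precursor markers were at or near the counting floor. Of 14 markers used, 13 were in the table. Ahsp, which steadies free alpha chains, was not analysed here. Epb42, Car1 and Kel were at 0 in all 9 tumors, and Rhag, the ammonium channel of the red cell membrane, had 1 count in 1 tumor. Klf1, the factor that drives adult beta-globin, had 0 to 7 counts in vehicle, 3 to 15 in R788 + anti-PDL1 and 6 to 17 in Rad + R788 + anti-PDL1 tumors. Gata1, the main erythroid GATA factor, had 0 to 3 counts in vehicle tumors, 8 to 14 in R788 + anti-PDL1 tumors and 0 to 3 in irradiated tumors. Each was at 0 in at least 1 vehicle tumor.

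Only Epor, Tal1 and Tfrc of the 13 markers were over 3 counts in every tumor, and all of them are also used by other cells. Tal1 (also in endothelium) had 43 to 178 counts, and the transferrin receptor gene Tfrc (used by dividing cells in general) had 7062 to 12785. The other 10 markers together summed to 1.10 to 1.57 CPM in vehicle, 1.54 to 2.48 CPM in R788 + anti-PDL1 and 1.14 to 2.28 CPM in Rad + R788 + anti-PDL1 tumors. These ranges overlapped, while globin ranges did not overlap between vehicle and treated tumors. All 4 embryonic globin genes, Hba-x, Hbb-bh1, Hbb-bh2 and Hbb-y, were at 0 in every tumor.

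**Figure D5:**
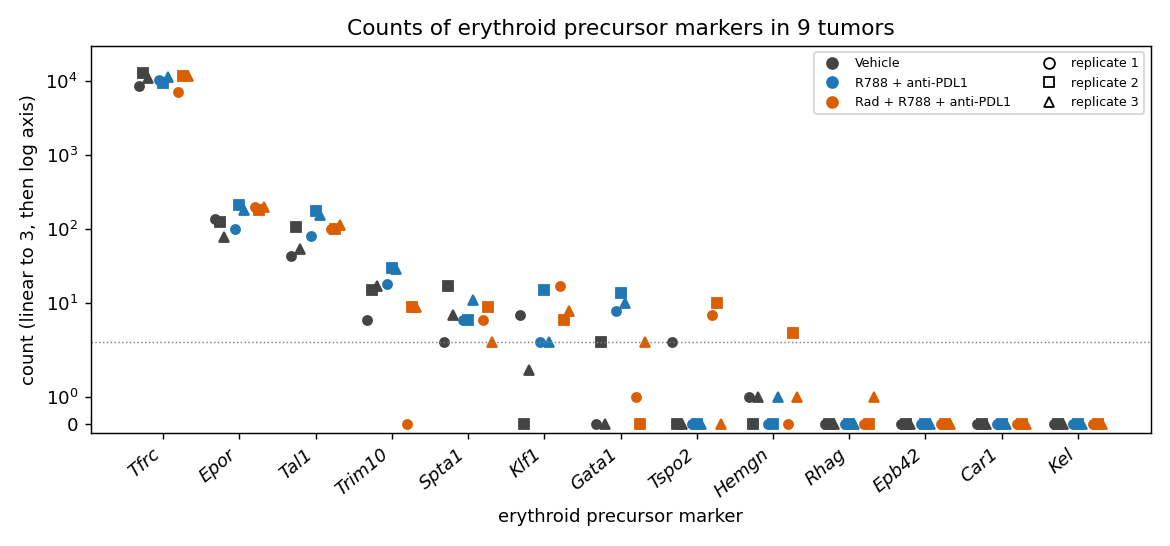
Counts of 13 erythroid precursor markers in each of 9 tumors, linear up to 3 counts (dotted line, the floor for a count of 0) and on a log axis above it. Epb42, Car1 and Kel are at 0 throughout, and Tfrc, Epor and Tal1 lie above the floor in every tumor.

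Across 7 erythroid lists, 70 of 72 genes were in the table, 9 were at 0 throughout and 48 were tested. edgeR called none of the 48 in any comparison. DESeq2 called 6 of 48 for R788 + anti-PDL1 against vehicle, the 4 globins, Add2 and Sptb, beside 4.83% of all genes. It called 2 of 48, the beta globins, for Rad + R788 + anti-PDL1 against vehicle (3.84% of all genes) and 1 of 48, Add2, between the treated groups (5.16%). Add2 and Sptb, named after their values were seen, encode parts of the membrane skeleton and were higher where the globins were lower after R788 + anti-PDL1. Add2 had 69 to 146 counts in vehicle, 390 to 588 in R788 + anti-PDL1 and 35 to 70 in irradiated tumors. Sptb (beta-spectrin) had 7 to 55, 141 to 247 and 74 to 103 counts in the same order.

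Many heme synthesis genes other than Alas2 are also used outside the red cell lineage, though not all to the same degree. All 12 on the list were tested. Without Alas2, 10 of 11 log2 differences were negative for R788 + anti-PDL1 against vehicle, with a median of -0.22, where 51.7% of all genes had a negative difference. Of these 11, Fech had an unadjusted p under 0.05, as did 11.7% of all genes. For Rad + R788 + anti-PDL1 against vehicle 5 of 11 were negative, with a median of 0.01, where 47.1% of all genes had a negative difference, and Ppox had an unadjusted p under 0.05. Fech, which puts iron into heme, had 94.3 ± 4.89 CPM in vehicle, 48.6 ± 23.4 in R788 + anti-PDL1 and 72.6 ± 13.5 in Rad + R788 + anti-PDL1 tumors. Slc25a37, the mitochondrial iron importer, had 57.2 ± 12.05, 73.5 ± 1.33 and 51.7 ± 8.44 CPM, and Urod had 53.4 ± 4.90, 52.9 ± 19.7 and 84.3 ± 66.7 CPM. The median of this list was closer to that of all genes than was the globin median of -2.15 for R788 + anti-PDL1 and -1.92 for Rad + R788 + anti-PDL1.

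Of 16 red cell membrane genes 8 were tested, with a median of 0.34 for R788 + anti-PDL1 and 0.76 for Rad + R788 + anti-PDL1 against vehicle. The most abundant were Epb41 (150 ± 2.31 CPM in vehicle tumors), Gypc (41.8 ± 9.52) and Rhd (5.55 ± 1.18). Rhd, of the Rhesus family, had 9.97 ± 3.45 CPM in the irradiated group. Of 11 erythroid transcription factors 7 were tested, with medians of -0.24 and -0.11 in the same comparisons. Ldb1, a cofactor present in many tissues, led this list at 219 ± 2.43 CPM in vehicle tumors, above Myb at 10.2 ± 8.42 and Zfpm1 at 6.50 ± 3.16. Among other erythroblast and reticulocyte genes 6 of 11 were tested, with medians of 0.23 and -0.11, led by Tfrc (551 ± 72.1 CPM), Xpo7 (133 ± 4.72) and Slc6a9 (32.2 ± 5.23).

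In erythropoietin signalling 11 of 12 genes in the table were tested, with medians of -0.14 and -0.13. The ligand gene Epo had 0 to 5 counts in any tumor. The receptor kinase gene Jak2 had 42.2 ± 3.62 CPM in vehicle, 41.3 ± 2.79 in R788 + anti-PDL1 and 29.4 ± 12.03 in Rad + R788 + anti-PDL1 tumors. Stat5b, which it activates, had 53.4 ± 3.94, 39.1 ± 8.23 and 38.6 ± 7.66 CPM. Socs3, a feedback inhibitor of cytokine signalling in many cells, had 194 ± 79.0, 100.3 ± 45.9 and 102 ± 7.38 CPM.

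The summed level of 10 endothelial genes was 44.3 to 54.6 CPM in vehicle, 53.0 to 144 in R788 + anti-PDL1 and 67.7 to 76.0 in Rad + R788 + anti-PDL1 tumors. All 10 had a positive log2 difference for R788 + anti-PDL1 against vehicle (median 0.81), as did 7702 of all 15931 genes. For Rad + R788 + anti-PDL1 against vehicle 8 of 10 were positive (median 0.39), beside 8435 of all 15931 genes. edgeR called none of the 10. Pecam1, a junction protein of endothelium, had 15.2 ± 0.70, 29.9 ± 13.5 and 29.3 ± 2.51 CPM in the 3 groups. Cdh5 had 11.9 ± 3.05, 17.97 ± 9.29 and 10.5 ± 4.32 CPM, and Kdr had 8.87 ± 1.76, 17.98 ± 8.20 and 9.24 ± 3.80 CPM. The treated tumors thus had lower globin sums and, but for R788 + anti-PDL1 replicate 1, higher endothelial sums than every vehicle tumor.

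The 10 neutrophil genes summed to 4.96 to 13.1 CPM in vehicle, 3.39 to 4.79 in R788 + anti-PDL1 and 4.41 to 18.02 in irradiated tumors. S100a9 had 2.54 ± 1.57, 0.225 ± 0.15 and 0.870 ± 0.28 CPM, Csf3r 2.87 ± 0.54, 1.71 ± 0.49 and 4.99 ± 7.54 CPM, and Cxcr2 1.46 ± 0.71, 1.83 ± 0.40 and 2.08 ± 0.90 CPM. Their medians of 5 tested genes were -1.35 and -1.08 against vehicle. Across 9 tumors the sum gave r = 0.07 and rho = 0.25 with globin, but in Rad + R788 + anti-PDL1 replicate 3 Csf3r alone made up 13.7 of the 18.02 CPM. S100a8 and S100a9, which encode the calprotectin chains, were lower without overlap after R788 + anti-PDL1, as the globins were. S100a8 had 11, 75 and 30 counts in vehicle, 4, 9 and 4 in R788 + anti-PDL1 and 15, 11 and 22 in irradiated tumors. DESeq2 called both for R788 + anti-PDL1 against vehicle (log2 difference -3.01 for S100a8, adjusted p = 0.00529, and -3.45 for S100a9, adjusted p = 0.000466), while edgeR called neither (adjusted p = 0.11 and 0.0831). Vehicle replicate 1, highest for globin, was the lowest vehicle tumor for both.

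The 10 platelet and megakaryocyte genes summed to 27.0 to 34.7, 19.5 to 26.6 and 19.1 to 75.8 CPM in the 3 groups, with medians of -0.07 and 0.42 against vehicle over the 5 tested. Pf4, which macrophages also express, had 17.1 ± 4.15, 12.8 ± 2.29 and 19.5 ± 11.4 CPM. Itga2b had 8.08 ± 1.18, 7.72 ± 1.16 and 10.8 ± 9.05 CPM, and Gp1bb had 1.26 ± 1.15, 1.23 ± 0.77 and 11.4 ± 12.5 CPM. The platelet chemokine gene Ppbp had 13, 85 and 49 counts in vehicle, 14, 3 and 6 in R788 + anti-PDL1 and 10, 7 and 15 in irradiated tumors. Its log2 difference from vehicle was -2.88 after R788 + anti-PDL1 without overlap (edgeR adjusted p = 0.163, and 0.0140 by DESeq2) and -2.02 in the irradiated group with overlap (edgeR adjusted p = 0.334). Among vehicle tumors it was lowest in replicate 1, as S100a8 and S100a9 were. S100a8 and Ppbp were named after their values were seen. The part of blood content, vessel content or sample handling in the globin differences was not tested.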

How the data were processed

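RNA from 9 whole tumors was measured by poly(A) RNA-seq. Reads were mapped by the authors to mm10 with STAR (2.6.1d) and quantified with Salmon (1.4.0), versions being those in the submitters' processing notes. Their deposited table lists 1 estimated count per symbol and library, as whole numbers without normalization. The labels name a paired-end run and the study's methods a single-read run, and strandedness is not given in the sources used here. Groups were taken from the treatment labels. Nothing states that replicates came from separate mice, so p-values measure the spread between these samples.

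Counts were rounded, filtered with filterByExpr (minimum count 10), scaled by TMM and modelled with edgeR's robust quasi-likelihood test (version 4.0.16 in R 4.3.3) over all 9 libraries together, with Benjamini-Hochberg adjustment over 15931 genes and a threshold of 0.05. Log2 CPM used an offset of 0.5. The globin sum was compared by exact two-sided permutation. Alternatives were DESeq2 1.42.0, limma 3.58.1 with voom, RLE and upper-quartile scaling, other filters, a replicate block, summed copies and left-out replicates. Floors of 3 counts and intervals at 95% cover counting error only. Coordinates are from GENCODE M21 and promoter sequences from RefSeq (GRCm38.p6), which held 6 of the 7 genes.

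The members and gene lists were chosen with earlier results of these data known. Named genes were all members, list genes called by edgeR, the 3 most abundant of each list, and the 5 most like in pattern, and precursor markers were a fixed list, of which 14 were used. Some listed genes are not reported here. Other genes named, such as Add2, Sptb, S100a8 and Ppbp, were chosen after their values were seen.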

Additional observations from a re-analysis of the deposited data

How the results depend on the processing

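The globin sum kept its direction against vehicle under every alternative run. Leaving out 1 tumor at a time gave log2 differences of -2.33 to -1.49 for R788 + anti-PDL1 and -2.61 to -1.52 for Rad + R788 + anti-PDL1, and other settings -2.0 to -1.86 and -2.09 to -1.96. Between treated groups the difference was -0.63 to 0.32 with 1 tumor left out, positive without R788 + anti-PDL1 replicate 2 (0.20) and without Rad + R788 + anti-PDL1 replicate 2 (0.24) or 3 (0.32), and the cause was not tested.

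Calls depended on the tool. For R788 + anti-PDL1 against vehicle, members called went from 0 to 4 by DESeq2, 1 without a low-count filter and 1 with only the 6 libraries compared, and erythroid list genes called went from 0 to 6 by DESeq2, 1 by limma-voom, 2 without a filter, 1 with at least 10 counts in every library, 2 with only 6 libraries and 0 to 1 with 1 tumor left out (1 without Vehicle replicate 1). For Rad + R788 + anti-PDL1 against vehicle, DESeq2 called 2 members and 2 list genes, and the fit without a filter 1 and 1. Between treated groups DESeq2, limma-voom and the fit without a filter each called 1 list gene and 0 members. The cause was not tested.

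Between treated groups, limma-voom gave -0.051 for Hba-a1, -0.23 for Hba-a2 and -0.010 for Hbb-bs, the opposite sign from edgeR. With 1 tumor left out, the ranges were -0.57 to 0.51 for Hba-a1, -0.86 to 0.45 for Hba-a2 (also -0.12 without R788 + anti-PDL1 replicate 1), -0.60 to 0.66 for Hbb-bs and -0.15 to 1.21 for Alas2. Each lowest value came without Rad + R788 + anti-PDL1 replicate 1.

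Whether equal replicate numbers pair the tumors was not settled. Deviations of same-numbered tumors from their group means correlated at -0.04 to 0.26, and those of differently numbered tumors at -0.26 to 0.15. For Rad + R788 + anti-PDL1 against vehicle the same-numbered values were 0.26, 0.23 and 0.06. Deviations cancel within each group, which ties these values to each other, so they cannot decide it. A fit with replicate number as a block called 0 members in each comparison, and gave -0.11 for Hba-a1, -0.29 for Hba-a2 and -0.057 for Hbb-bs between treated groups. Of 1428 alternative values of 30 other list genes, 93 had the opposite sign and 6 were called. Depth limited Slc4a1 and the precursor markers, whose counts were mostly at or under 17.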

Other observations

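Genes of heme and iron recycling by macrophages, which take up old red cells, were looked at as another list of 12, all of which were tested. Their summed level was 3970 to 4237 CPM in vehicle, 1901 to 3595 in R788 + anti-PDL1 and 2397 to 6348 in Rad + R788 + anti-PDL1 tumors, most of it from the ferritin genes. Ftl1 had 2292 ± 193 CPM, 1580 ± 454 and 2139 ± 1157 CPM in that order (SD, n = 3), and Fth1 had 1413 ± 49.3, 942 ± 301 and 1489 ± 1007 CPM. Hmox1, which breaks heme down, had 189 ± 33.3, 135 ± 90.0 and 56.9 ± 10.1 CPM. edgeR called none of the 12 in either comparison with vehicle. In each of these comparisons 7 of the 12 had a positive log2 difference and 5 a negative one. DESeq2 called Slc40a1 (the iron exporter ferroportin, log2 difference 1.63), Spic (a factor of splenic red pulp macrophages, 2.89) and Vcam1 (1.995) higher after R788 + anti-PDL1. These were 3 of 12, beside 4.83% of all genes. In the irradiated group it called Hmox1 (-1.70) lower, 1 of 12, beside 3.84% of all genes. These genes called by DESeq2 were named after their values were seen.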
